A study of Mus musculus with 9 samples.

Results

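The 10 genes Csf1r, Cx3cr1, Mrc1, C1qa, C1qb, C1qc, Ptprc, Tyrobp, Fcer1g and Cd68, which mark macrophages, were followed in RNA sequencing of whole embryonic mouse pancreas. They were chosen by name, as the rows whose gene symbol is 1 of the 10, and make up 10 of 23235 gene symbols in the tables. All 10 stood at 1 FPKM or more in at least 3 libraries, so each was among the 13306 genes tested. FPKM, the unit of every level below, counts fragments relative to the length of the transcript and the size of the library. It allows levels of different genes to be set side by side.

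The 9 libraries fall into 3 groups of 3 by genotype at Blinc1, a long noncoding RNA gene that lies next to Nkx2-2 on mouse chromosome 2: wild type (Blinc1+/+), heterozygote (Blinc1+/-) and knockout (Blinc1-/-). Every group was pancreas from e15.5 embryos, on a mixed c57bl/6 and 129sv background, with no treatment named. Since the whole organ was taken, macrophages are a minority among acinar, duct, endocrine, mesenchymal, endothelial and blood cells. The sources used here do not say how the Blinc1 allele was made, nor whether libraries of 1 group came from separate embryos. The p-values therefore reflect how these 9 libraries spread, which may be partly technical.

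Tissue macrophages of the embryo derive from yolk sac and fetal liver progenitors and settle in organs as these form. They live on signals through the receptor encoded by Csf1r, which binds the growth factors CSF1 and IL-34, and the transcription factor PU.1 drives much of their gene set. In the developing pancreas they lie among the mesenchyme and beside the islets, where they clear dead cells and remodel matrix. C1qa, C1qb and C1qc encode the 3 chains of C1q, the recognition molecule of the classical complement pathway, and tissue macrophages are its main source.

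Promoter sequences are shown for the 4 genes whose knockout libraries all lay below all wild-type libraries, because they show which letters known from macrophage promoters stand in front of these genes. Each is the 250 bases upstream of the annotated start, read along the gene's own strand, from RefSeq on GRCm38.p6. Capitals mark GAGGAA, the core of PU.1 sites, or its extension GAGGAAGT, which contains it, and TGTGGT, the core of RUNX sites, each on either strand, so that TTCCTC, ACTTCCTC and ACCACA are capitals too. The C1qc window is chr4:136892915-136893164 on the minus strand and the C1qb window is chr4:136886201-136886450 on the minus strand. The Mrc1 window is chr2:14229164-14229413 on the plus strand, and the Cx3cr1 window is chr9:120068297-120068546 on the minus strand.
C1qc: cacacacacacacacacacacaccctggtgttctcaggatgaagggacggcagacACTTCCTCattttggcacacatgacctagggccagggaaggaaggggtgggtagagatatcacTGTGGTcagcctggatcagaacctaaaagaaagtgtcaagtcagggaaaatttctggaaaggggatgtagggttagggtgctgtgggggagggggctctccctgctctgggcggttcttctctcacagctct
C1qb: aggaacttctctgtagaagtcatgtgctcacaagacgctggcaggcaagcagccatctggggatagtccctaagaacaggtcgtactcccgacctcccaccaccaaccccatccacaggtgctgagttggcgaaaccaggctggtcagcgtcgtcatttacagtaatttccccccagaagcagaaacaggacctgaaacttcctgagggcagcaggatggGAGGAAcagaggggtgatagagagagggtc
Mrc1: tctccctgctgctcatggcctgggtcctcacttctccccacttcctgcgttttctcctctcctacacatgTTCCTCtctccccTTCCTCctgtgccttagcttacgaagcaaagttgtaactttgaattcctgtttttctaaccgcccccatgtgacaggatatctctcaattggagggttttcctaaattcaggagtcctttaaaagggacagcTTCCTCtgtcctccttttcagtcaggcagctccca
Cx3cr1: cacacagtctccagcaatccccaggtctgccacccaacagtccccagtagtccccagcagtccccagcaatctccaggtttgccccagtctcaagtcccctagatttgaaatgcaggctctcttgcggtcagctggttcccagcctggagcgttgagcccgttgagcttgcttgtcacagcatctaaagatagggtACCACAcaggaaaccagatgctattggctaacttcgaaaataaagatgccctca

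Of the 10 genes, 7 matched the RefSeq promoter table, with 8 promoters because Ptprc has 2. GAGGAA stood in 5 of the 8 windows (C1qb, C1qc, Cd68, Mrc1 and 1 of Ptprc), against 23.3% of 32851 windows of the same length, and Mrc1 held it 3 times. GAGGAAGT stood in 1 window, that of C1qc, against 2.44% of all windows. TGTGGT stood in 2 windows (C1qc and Cx3cr1), against 14% of all windows. TGCTGAC, the core of MAF sites, stood in 0 of the 8 and in 3.81% of all windows. These are matches of letters, not bound sites. C1qa, Csf1r and Tyrobp had no entry.

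The libraries held between 19523066 and 25426555 implied fragments, a number worked back from the confidence bounds of each FPKM. Nkx2-2, the only check on the labels used here, was at 24.9 FPKM in the library labelled knockout 1, inside the wild-type range of 15.2 to 25.5, and at 6.08 and 5.48 in knockouts 2 and 3. It was at 6.37 FPKM in the library labelled heterozygote 1, against 19.0 and 13.4 in the other two. These values go against the other libraries of their groups, so both labels are in doubt. Nkx2-2 is a neighbour of Blinc1 and does not read its genotype. Whether a wrong label or variation within a group lies behind these values was not tested. The libraries were kept under their labels, and the main comparisons are also given without them. By Xist, all 3 knockouts, wild type 3 and heterozygote 3 were female and the other 4 libraries were male.

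Levels among the macrophage genes spanned 2 orders of size. In wild type, C1qa stood highest at 157 ± 12.5 FPKM (SD, n = 3), and its mean over 9 libraries exceeded that of 95.95% of tested genes. C1qb followed at 37.7 ± 4.86, Tyrobp at 32.5 ± 4.96, C1qc at 31.8 ± 5.13 and Fcer1g at 30.1 ± 3.63 FPKM. The wild-type ranges of neighbours in this order overlapped, and C1qb lay wholly above Fcer1g. Csf1r came next at 14.7 ± 2.25 FPKM, apart from the genes above and below it. Mrc1 at 7.99 ± 0.851, Cd68 at 7.13 ± 0.473 and Cx3cr1 at 6.05 ± 0.969 FPKM overlapped from each to the next. Ptprc was lowest at 1.46 ± 0.275 FPKM, above only 3.95% of tested genes by its mean over 9 libraries. The label of macrophage genes thus rests on defining markers that were present in every library, with Ptprc, which every leukocyte carries, at the foot of the order.

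**Figure D1:**
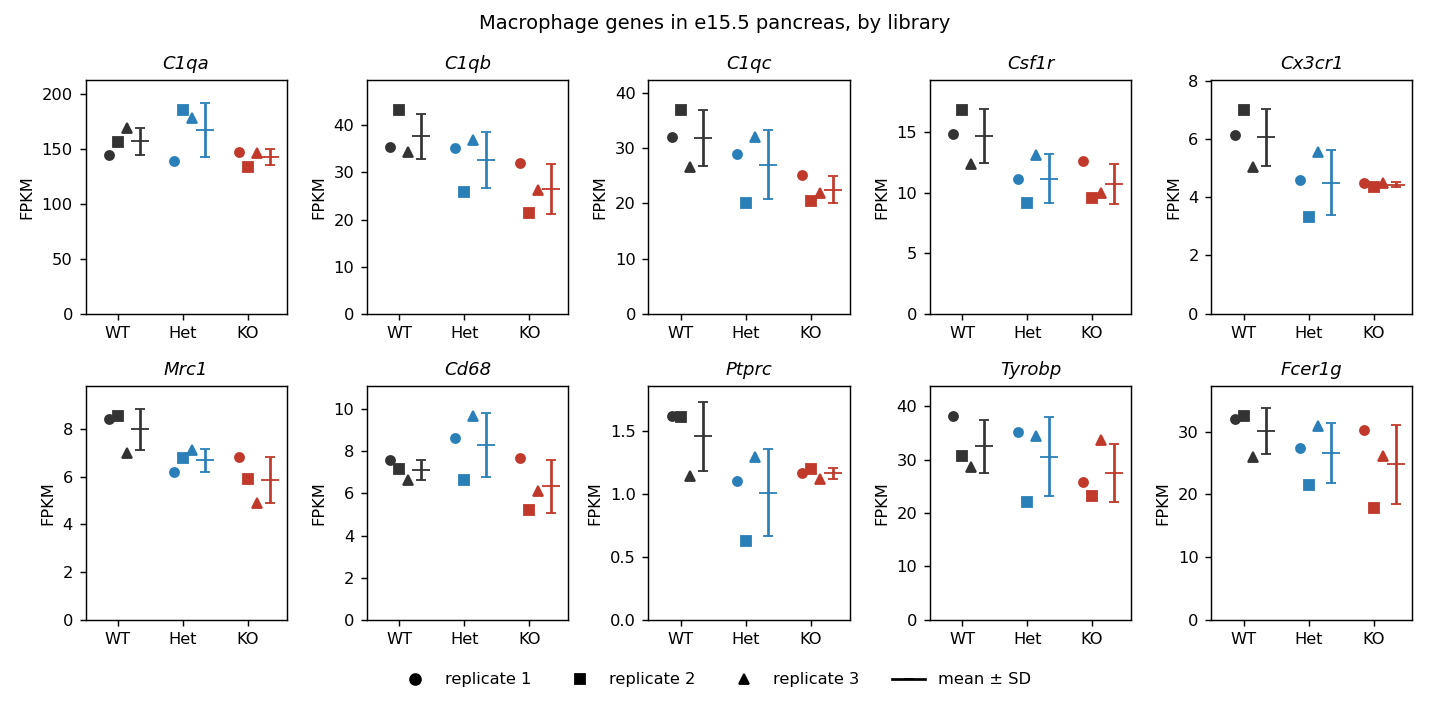
Each panel plots the FPKM of 1 macrophage gene (y axis, linear from 0) in the 9 libraries, by genotype (x axis: WT wild type, Het heterozygote, KO knockout). Symbols are replicates and bars are the mean ± SD of 3 libraries. The knockouts lie wholly below wild type for Cx3cr1, Mrc1, C1qb and C1qc, and C1qa is the 1 gene whose highest library is heterozygote 2.

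The C1q chains are encoded side by side on chromosome 4 of mm9, all on the minus strand: C1qb at 136436061 to 136442092, C1qc at 136445717 to 136448829 and C1qa at 136451831 to 136454759. The cluster covers 18.7 kb, with gaps of 3.624 and 3.001 kb. No other annotated gene overlaps the 3.

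C1qb, the B chain, stood at 35.4, 43.2 and 34.3 FPKM in wild types 1, 2 and 3. It stood at 35.1, 25.9 and 37.0 in heterozygotes 1, 2 and 3 and at 32.1, 21.4 and 26.2 in knockouts 1, 2 and 3. Every knockout was below every wild type, while the heterozygotes overlapped both groups. The knockout mean of 26.6 ± 5.32 was 29.5% below the wild-type mean as a level. On log2(FPKM + 1) the difference was -0.50 with a standard error (SE) of 0.17, the largest of the 10 in size, and limma gave an unadjusted p = 0.014 and an adjusted p = 0.58 (Benjamini-Hochberg over 13306 genes). In bulk tissue, fewer macrophages and less of a transcript per macrophage cannot be told apart, here and in every result below.

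C1qc, the C chain, was at 32.0, 36.9 and 26.6 FPKM in the wild types. It was at 29.0, 20.0 and 32.0 in the heterozygotes and at 25.2, 20.4 and 21.8 in the knockouts. Its knockouts too were all below its wild types, with heterozygote 2 below every knockout. The log2 difference of knockout from wild type was -0.48 (SE 0.17, limma unadjusted p = 0.02, adjusted p = 0.58).

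C1qa, the A chain, did not share this pattern. Its FPKM was 144, 156 and 169 in the wild types, 139, 185 and 177 in the heterozygotes, and 147, 134 and 146 in the knockouts. The groups overlapped, and the library with the most C1qa, heterozygote 2, was the one with the least C1qc. The knockout mean of 142 ± 7.31 was 9.19% below wild type, a log2 difference of -0.14 (SE 0.11, 95% interval -0.37 to 0.10, limma adjusted p = 0.67). It was -0.08 without wild type 3. C1qa was also the best counted of the 10, with 2561 to 4082 implied fragments per library against 472 to 828 for C1qb and 390 to 700 for C1qc.

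Csf1r, the receptor tyrosine kinase for CSF1 and IL-34 (chromosome 18 of mm9, 61265226 to 61290793, plus strand), was at 14.9, 16.8 and 12.3 FPKM in the wild types. It was at 11.1, 9.12 and 13.2 in the heterozygotes and at 12.6, 9.56 and 9.94 in the knockouts. The library labelled knockout 1 lay above wild type 3, so those groups overlapped, and both mutant means were lower than wild type, at 11.1 ± 2.02 and 10.7 ± 1.66. The log2 difference from wild type was -0.42 (SE 0.15) in knockouts and -0.37 (SE 0.15) in heterozygotes. These 2 differences share the wild-type libraries. The limma adjusted p was 0.58 and 0.94, from unadjusted values of 0.021 and 0.035.

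Cx3cr1, the receptor of the chemokine CX3CL1 and a marker of monocytes and many tissue macrophages (chromosome 9, 119957811 to 119977400, minus strand), was at 6.12, 6.99 and 5.05 FPKM in the wild types. It was at 4.61, 3.34 and 5.56 in the heterozygotes and at 4.48, 4.34 and 4.48 in the knockouts. The knockouts were nearly level with each other (SD 0.0811) and all below wild type, and the heterozygotes spread to both sides of them. The log2 difference from wild type was -0.37 (SE 0.15) in both knockouts and heterozygotes, with limma unadjusted p of 0.037 and 0.036 and adjusted p of 0.58 and 0.94.

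Mrc1, the mannose receptor CD206, which takes up glycoproteins and is typical of tissue-resident macrophages, was at 8.43, 8.53 and 7.01 FPKM in the wild types. It was at 6.18, 6.78 and 7.10 in the heterozygotes and at 6.81, 5.92 and 4.88 in the knockouts. Heterozygote 3 reached just above wild type 3, and no knockout did. The log2 difference of knockouts from wild type was -0.39 (SE 0.12), with the smallest unadjusted p of the 10 (limma, 0.0074) and an adjusted p of 0.58. The gene spans 14151041 to 14253650 on the plus strand of chromosome 2 of mm9, and the microRNA gene Mir511 lies inside it on the same strand, at 14182630 to 14182708. Blinc1 and Nkx2-2 are on this chromosome too.

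Cd68 encodes a glycoprotein of the lysosome membrane that is abundant in macrophages. It was at 7.59, 7.16 and 6.65 FPKM in the wild types, 8.62, 6.66 and 9.66 in the heterozygotes and 7.68, 5.20 and 6.14 in the knockouts. Unlike the receptors, it was higher in heterozygotes than in wild type on average (8.32 ± 1.52 against 7.13 ± 0.473), a log2 difference of 0.18 (SE 0.15, limma adjusted p = 0.94). Against the heterozygotes the knockouts were lower by a log2 difference of -0.34 (SE 0.15, unadjusted p = 0.042, limma adjusted p = 1), with overlapping groups. These differences were 0.08 without heterozygote 3 and 0.32 without heterozygote 2 for the first, and -0.23 without knockout 2 for the second. The gene lies on chromosome 11, from 69477873 to 69479564 on the minus strand, and rested on 103 to 169 implied fragments per library, few beside the C1q genes.

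Ptprc encodes CD45, the phosphatase on the surface of leukocytes (chromosome 1, 139959438 to 140071882, minus strand). Its FPKM was 1.62, 1.62 and 1.14 in the wild types, 1.10, 0.626 and 1.30 in the heterozygotes, and 1.17, 1.20 and 1.12 in the knockouts. Wild types 1 and 2 stood above the rest, and the other 7 libraries lay together but for the low heterozygote 2. The log2 difference from wild type was -0.18 (SE 0.15, limma adjusted p = 0.69) in knockouts and -0.30 (SE 0.15, adjusted p = 0.94) in heterozygotes. At this level the added 1 FPKM shrinks the difference: as a level the knockout mean was 20.1% lower. Without wild type 3 the log2 difference of knockouts was -0.27, and without heterozygote 2 that of heterozygotes was -0.16.

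The remaining genes encode adaptors that carry activating ITAM motifs. Tyrobp encodes DAP12, the partner of receptors such as TREM2, and Fcer1g encodes the common Fc receptor gamma chain. NK cells, mast cells and other myeloid cells use them as well.

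Tyrobp (chromosome 7, 31198807 to 31202598, plus strand) was at 38.1, 30.7 and 28.6 FPKM in the wild types, 35.2, 22.1 and 34.4 in the heterozygotes, and 25.9, 23.1 and 33.6 in the knockouts. Fcer1g (chromosome 1, 173159703 to 173164480, minus strand) was at 32.0, 32.4 and 25.9 FPKM in the wild types, 27.4, 21.5 and 30.9 in the heterozygotes, and 30.3, 17.9 and 26.1 in the knockouts. The 3 groups overlapped for both genes. The log2 difference of knockouts from wild type was -0.24 (SE 0.19, limma adjusted p = 0.68) for Tyrobp and -0.30 (SE 0.19, adjusted p = 0.61) for Fcer1g. Both rested on single libraries: without knockout 2 they were -0.13 and -0.09. Without wild type 1 Tyrobp was at -0.12 and without knockout 3 at -0.39, and without the library labelled knockout 1 Fcer1g was at -0.45.

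Set side by side, the 10 genes leaned to lower levels in knockouts than in wild type, but no gene passed the test. All 10 log2 differences were below 0, from -0.50 (C1qb) to -0.14 (C1qa), with a median of -0.33, where 58.5% of all tested genes were below 0 and their median was -0.03. At an adjusted p under 0.05, 0 of the 10 were called by limma, and the background was 0% of all tested genes. At an unadjusted p under 0.05 there were 5 of the 10, all lower (Csf1r, Cx3cr1, Mrc1, C1qb and C1qc), against 8.39% of all tested genes in either direction and 5.79% that were lower. For 4 of the 10 the knockouts lay wholly below wild type, against 6.64% of tested genes. The 95% interval of the difference included 0 for the other 5 genes. With 3 libraries a group, the smallest p that an exact permutation test of 1 gene allows is 0.1. The profiles of most of the 10 genes ran together over the libraries, as given below. Counts of these genes, here and in the later comparisons, are therefore not separate observations.

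**Figure D2:**
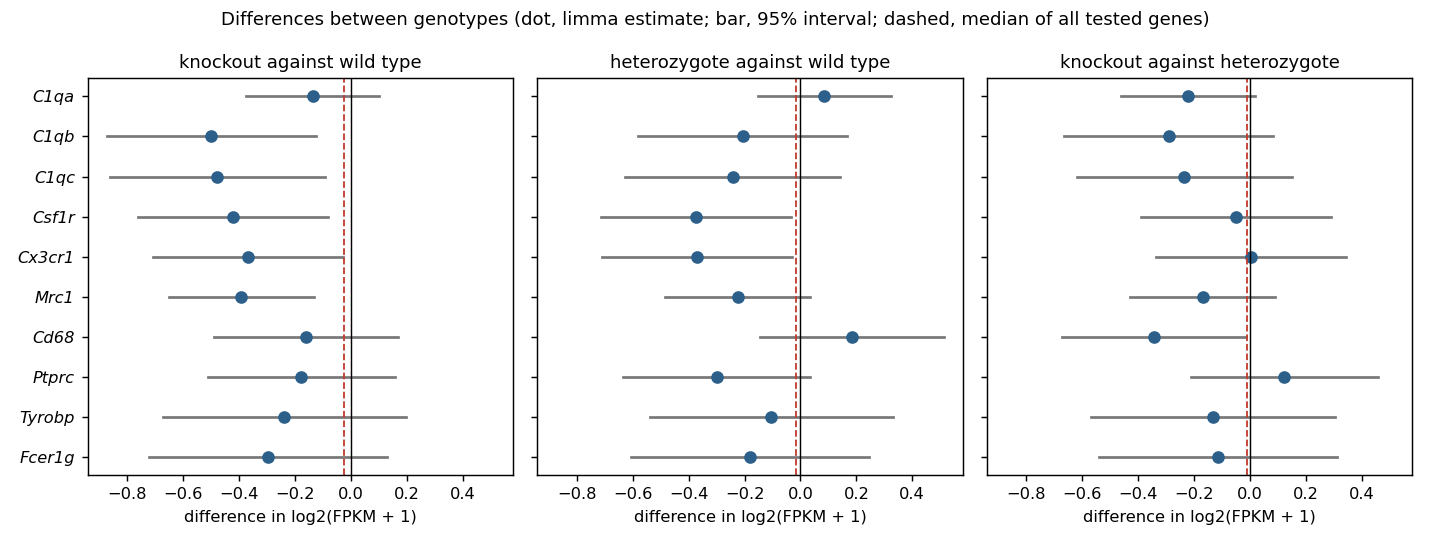
Differences in log2(FPKM + 1) between genotypes for the 10 genes (dots, limma estimates from 9 libraries; bars, 95% intervals without adjustment for the number of genes), in 1 panel per comparison. The dashed line is the median of all 13306 tested genes. In knockouts against wild type the 10 dots lie left of 0, from -0.50 to -0.14, and 5 bars end before 0.

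Several features of the libraries moved with this difference, and their part in it was not tested beyond the values given. All knockouts were female and 2 of 3 wild types male. With sex in the model all 10 differences were again below 0, with a median of -0.33, 2 genes at an unadjusted p under 0.05 and a smallest adjusted p of 0.87. Of all tested genes in that limma fit, 56.8% were below 0 and 2.52% were lower at an unadjusted p under 0.05. Without the libraries labelled knockout 1 and heterozygote 1 the median was -0.41, C1qb stood at -0.64 (SE 0.16) and Mrc1 at -0.49 (SE 0.11), and the smallest adjusted p among the 10 was 0.10. The other tested genes moved too. Over all tested genes the median was then -0.05, with 61.3% below 0. The share lower at an unadjusted limma p under 0.05 was 15%, against 5.79% in the main fit. Without knockout 2 or without wild type 2, the median was -0.27 in both cases, with 1 gene at an unadjusted p under 0.05. Of all tested genes, 50.9% were below 0 without knockout 2 and 63.1% without wild type 2. In the same order, 1.65% and 2.12% were lower at an unadjusted p under 0.05 (limma).

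In heterozygotes against wild type, 8 of the 10 genes were lower and 2, C1qa (0.09) and Cd68 (0.18), were higher on the log2 scale. The median was -0.22, against -0.02 for all tested genes, of which 57.1% were below 0. No gene was called by limma (adjusted p 0.94 to 0.97; background 0%), and Csf1r and Cx3cr1 had an unadjusted p under 0.05, both lower, against 3.92% of tested genes in either direction and 2.58% that were lower. In none of the 10 did the heterozygotes lie wholly below wild type, where 7.05% of tested genes did. Single libraries weighed on this comparison: the median was -0.05 without heterozygote 2 and -0.14 without wild type 2. Without heterozygote 2 the difference was -0.25 for Csf1r and -0.21 for Cx3cr1. Without the libraries labelled knockout 1 and heterozygote 1 the median was -0.24. This comparison and that of the knockouts use the same wild-type libraries, so a lean in both is not 2 separate observations.

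In knockouts against heterozygotes, 8 of the 10 genes were lower, with a median of -0.15 against -0.01 for all tested genes, of which 55.3% were below 0. Cx3cr1 was level (log2 difference 0.002, 95% interval -0.34 to 0.34) and Ptprc was 0.12 higher (SE 0.15). No gene was called (limma adjusted p = 1 for each; background 0%), 1 gene (Cd68, lower) had an unadjusted p under 0.05 against 2.22% of tested genes in either direction and 0.969% that were lower, and in none of the 10 did the knockouts lie wholly below the heterozygotes, where 2.43% of tested genes did. Single libraries moved the median, to -0.07 without heterozygote 3, -0.09 without knockout 2 and -0.26 without knockout 1. Without the libraries labelled knockout 1 and heterozygote 1 it was -0.25, with 7 of 10 lower, beside 56.6% of all tested genes.

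Libraries of 1 genotype also differed among themselves. Wild type 2 was the highest library for 6 of the 10 genes (Csf1r, Cx3cr1, Mrc1, C1qb, C1qc and Fcer1g) and wild type 1 for Ptprc and Tyrobp. Heterozygote 2 was the lowest for 5 (Csf1r, Cx3cr1, C1qc, Ptprc and Tyrobp), and knockout 2 for 4 (C1qa, C1qb, Fcer1g and Cd68). Heterozygote 3, by contrast, was above the mean over 9 libraries for 10 of 10 genes, with a mean centred log2 value of 0.19, close to 0.21 in wild type 1 and 0.27 in wild type 2. The lowest such means were -0.30 in knockout 2 and -0.25 in heterozygote 2. The summed FPKM without C1qa ranged from 109 in knockout 2 to 184 in wild type 2, with heterozygote 2 at 116 and heterozygote 3 at 171.

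The profiles of most of the 10 genes over the libraries ran together. The Pearson correlation of a gene's log2 level with the mean of the other 9 genes was 0.97 for C1qc, 0.94 for C1qb, 0.93 for Csf1r, 0.88 for Fcer1g and 0.85 for Cx3cr1. It lay between 0.62 and 0.68 for Tyrobp, Cd68, Ptprc and Mrc1, and was 0.03 for C1qa. These values describe 9 libraries that differ in depth, sex and tissue make-up as well as genotype.

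**Figure D3:**
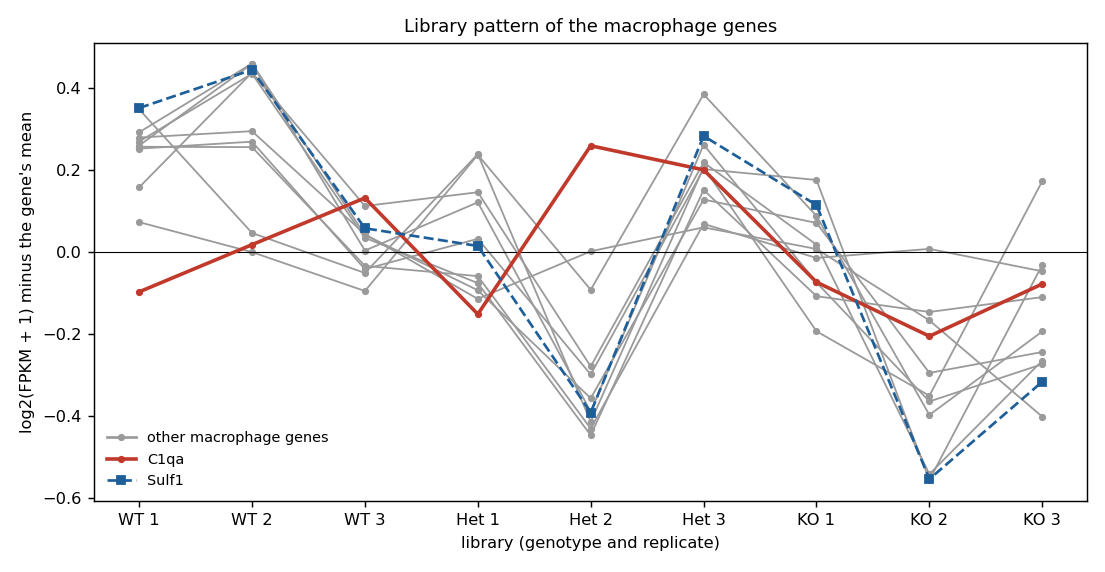
The y axis gives log2(FPKM + 1) of each gene minus its mean over 9 libraries, and the x axis the libraries in order of genotype. Grey lines are 9 macrophage genes, the red line is C1qa and the blue dashed line is Sulf1, the gene outside the list most like their mean. Most grey lines peak at wild type 2 and heterozygote 3 and dip at heterozygote 2 and knockout 2, while C1qa peaks at heterozygote 2.

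Ratios of 2 genes within a library do not depend on the library's total. C1qb over C1qc stayed between 1.05 and 1.29 across 9 libraries, a range of 1.23 times, and Csf1r over Cx3cr1 between 2.20 and 2.81, a range of 1.28 times. C1qa over C1qb ranged from 3.62 in wild type 2 to 7.13 in heterozygote 2, a range of 1.97 times. C1qa over C1qc ranged from 4.24 to 9.22 between the same libraries. The B and C chain transcripts thus kept a near constant proportion, and the A chain transcript of the same cluster did not.

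Cd68 over Csf1r separated the genotypes, a ratio singled out after its values were seen. It was 0.511, 0.426 and 0.539 in the wild types, 0.774, 0.731 and 0.734 in the heterozygotes, and 0.609, 0.544 and 0.618 in the knockouts, so the 3 groups did not overlap. Among 13305 other tested genes, the ratio to Csf1r lay wholly higher in heterozygotes than in wild type for 14%, in knockouts than in wild type for 32.8%, and lower in knockouts than in heterozygotes for 1.03%. Of the 45 pairs among the 10 genes, 16 had ratios that did not overlap between heterozygotes and wild type, 8 of them with Cd68. There were 3 such pairs in knockouts against wild type, all with Cd68, and 11 in knockouts against heterozygotes, 5 of them with Cd68. C1qa took part in 0 of these pairs. Of all pairs of tested genes with no library at 0, ratios did not overlap for 10.5% in heterozygotes against wild type, 12.2% in knockouts against wild type and 6.14% in knockouts against heterozygotes. The pairs of the 10 genes share their members, so they are not separate observations.

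**Figure D4:**
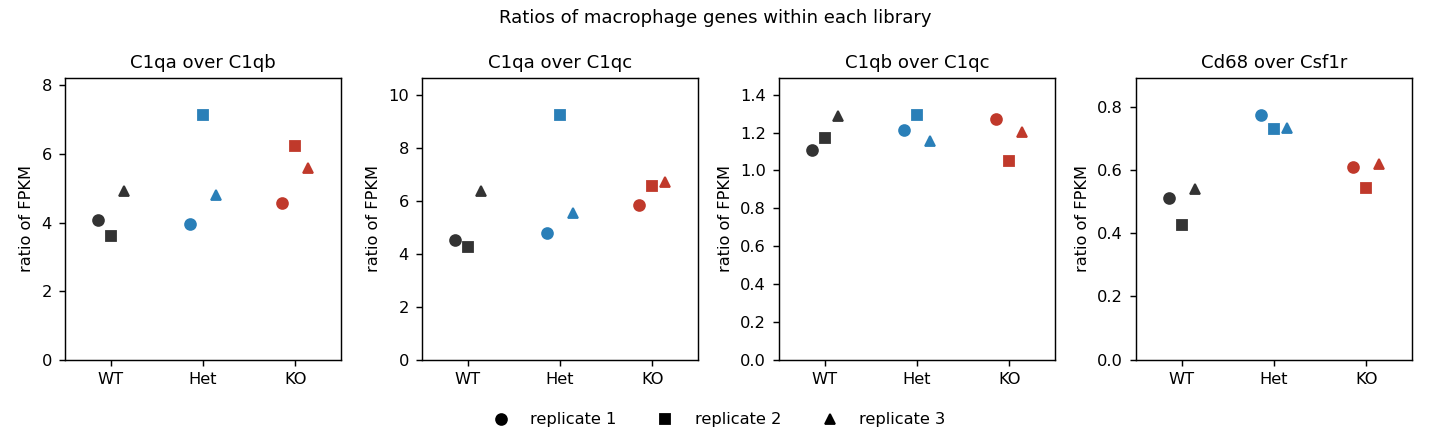
Ratios of FPKM between 2 genes in the same library (y axis, linear from 0), by genotype, with a symbol for each replicate. C1qb over C1qc stays between 1.05 and 1.29, C1qa over C1qb reaches 7.13 in heterozygote 2, and Cd68 over Csf1r gives 3 groups that do not overlap.

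The genes outside the 10 whose profile over 9 libraries was most like the mean of the 10 were Sulf1, Tac2, Myl9, Tnnt1, Sh3bp5, Thbs3, Psap, Sox8, Cnn2 and Mmp16, with a Pearson r of 0.97 to 0.99. Without knockout 2 and wild type 2, the libraries at the ends of that mean, r stayed between 0.94 and 0.98. Sulf1, an extracellular sulfatase that trims heparan sulfate, was at 36.1, 38.6 and 29.3 FPKM in the wild types, 28.4, 21.2 and 34.4 in the heterozygotes and 30.5, 18.8 and 22.4 in the knockouts. Myl9 encodes a myosin light chain of contractile cells, Cnn2 a calponin, and Mmp16 a membrane-bound matrix metalloprotease. Psap, which encodes the precursor of the lysosomal saposins, was the 1 gene of the 10 that stands in a list used here, that of the lysosome. Markers of the mesenchyme were summed for comparison: their total ran from 1589 FPKM in knockout 2 and 1777 in heterozygote 2 to 2709 in wild type 2. Whether the macrophage genes vary with the mesenchyme's share of the tissue was not tested.

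Among the partners of Csf1r, 13 of 16 listed genes were tested in knockouts against wild type, 9 lower and 4 higher, with a median log2 difference of -0.24 and 0 called. Csf1, the gene of the main ligand, was at 7.55 ± 1.31 FPKM in wild type and 6.20 ± 0.486 in knockouts (log2 difference -0.24, SE 0.13). The second ligand gene, Il34, went the other way, at 2.86 ± 0.167 in wild type, 3.399 ± 0.00643 in heterozygotes and 4.18 ± 1.12 in knockouts (log2 difference 0.40, SE 0.15, limma adjusted p = 0.58). Its value in the library labelled knockout 1 was 2.91 FPKM, inside the wild-type range, against 5.02 and 4.62 in knockouts 2 and 3. The myeloid factor gene Spi1, which encodes PU.1 and is named Sfpi1 in the files, was at 5.69 ± 0.414 and 4.57 ± 0.698 (log2 difference -0.27, SE 0.12, adjusted p = 0.58), with no overlap. Maf, which encodes a factor of mature macrophages, was at 16.5, 16.9 and 13.1 FPKM in the wild types and at 12.6, 10.1 and 10.1 in the knockouts (log2 difference -0.47, SE 0.15, adjusted p = 0.58). Id2 and Cebpa, which are also expressed outside blood cells and were among the highest of the list, stood at 173 and 13.1 FPKM in knockouts against 163 and 11.6 in wild type.

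Of the chemokine genes, 11 of 15 were tested, 10 lower and 1 higher in knockouts, with a median of -0.19 and 0 called. Cx3cl1, the ligand of Cx3cr1, was at 4.35 ± 0.508 FPKM in wild type, 3.43 ± 0.496 in heterozygotes and 3.44 ± 0.766 in knockouts (log2 difference -0.28, SE 0.14, limma adjusted p = 0.58). Cxcl12, a chemokine of the mesenchyme, was at 169 ± 14.1 and 137 ± 24.5 FPKM, and Ccr2, the receptor of inflammatory monocytes, at 2.76 ± 0.659 and 2.25 ± 0.527. Ccl8 was listed at 0 in 9 of 9 libraries.

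Around C1q in the complement system, 17 of 21 listed genes were tested, 14 lower and 3 higher in knockouts, with a median of -0.24 and 0 called. The proteases that join C1q in the C1 complex were represented by C1ra, at 4.46 ± 1.19 FPKM in wild type and 3.59 ± 0.691 in knockouts, and C1s, at 7.83 ± 2.12 and 5.51 ± 0.807 (log2 difference -0.42, SE 0.18, limma adjusted p = 0.58). Serping1, the inhibitor of that complex, was at 36.3 ± 5.07 and 27.9 ± 5.43, and C3, the central component, at 3.43 ± 1.69 and 2.30 ± 0.413. Calr, whose product calreticulin can bind C1q but works chiefly as a chaperone of the endoplasmic reticulum, was by far the highest at 1082 ± 35.4 and 1145 ± 57.1 FPKM. Itgam and Itgb2, which encode the chains of complement receptor 3, were at 0.897 and 1.98 FPKM in wild type and 0.968 and 1.56 in knockouts.

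Around the ITAM adaptors, 20 of 27 genes were tested and 20 were lower in knockouts, with a median of -0.20 and 0 called. The members of highest level were Sirpa, an inhibitory receptor that neurons also carry, at 27.6 ± 1.27 and 24.4 ± 3.52 FPKM, and Fcgr3, an Fc receptor that needs the Fcer1g chain, at 12.5 ± 1.23 and 10.6 ± 1.03. Trem2, a receptor that signals through Tyrobp, was at 3.60 ± 0.873 and 2.93 ± 0.890. The kinase gene Syk, which acts below both adaptors, was at 2.33 ± 0.103 and 1.97 ± 0.207 FPKM, with no overlap (log2 difference -0.16, SE 0.10, limma adjusted p = 0.59). In heterozygotes 17 of the 20 were lower than in wild type, with a median of -0.16.

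A wider list of macrophage genes held 54 tested genes of 64 in the tables, 49 lower and 5 higher in knockouts than in wild type, with a median of -0.25. In heterozygotes 50 were lower and 4 higher, with a median of -0.19, and limma called 0 in either comparison. The background for this list, as for the others, was 58.5% of all tested genes below 0 in knockouts and 57.1% in heterozygotes. From which cells these transcripts came was not tested. The highest levels were those of Cyba, a subunit of the phagocyte oxidase that other cells express too, at 127 ± 7.89 FPKM in wild type and 130 ± 6.53 in knockouts, and the lipid carrier Apoe, at 137 ± 14.9 and 102 ± 24.3. Lyz2, the lysozyme of myeloid cells, stood at 59.0 ± 13.2 and 44.6 ± 9.38, and the cathepsin gene Ctsb at 103 ± 4.10 and 97.4 ± 4.06. The smallest adjusted p of the list was that of Lst1, a leukocyte gene named here for that value: its log2 difference was -0.75 (SE 0.10, limma adjusted p = 0.25) in knockouts and -0.88 (SE 0.10, adjusted p = 0.072) in heterozygotes. Vsig4 and Clec4f, markers of Kupffer cells, the macrophages of the liver, were at means of 0.0116 and 0.00618 FPKM over 9 libraries. The 18 lysosome genes, which all cell types use, had a median of -0.07 in knockouts, with 13 lower and 5 higher.

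**Figure D5:**
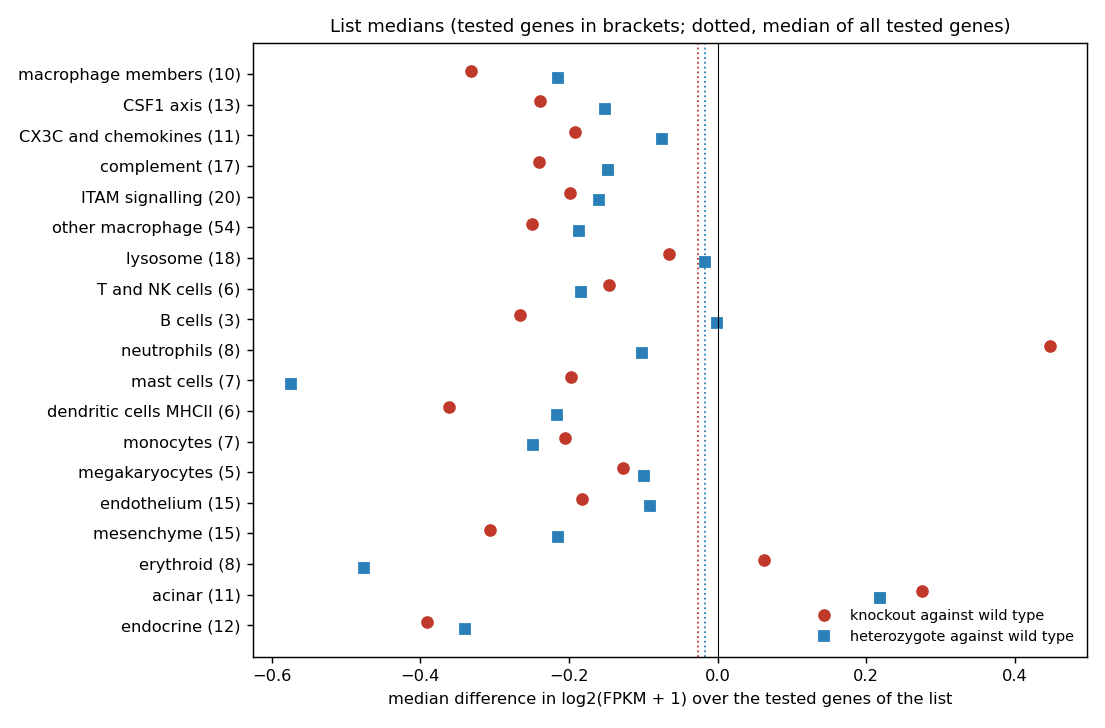
Each row is a gene list, with the number of tested genes in brackets, and the x axis is the median difference in log2(FPKM + 1) over those genes, red circles for knockouts against wild type and blue squares for heterozygotes against wild type. Dotted lines are the medians of all tested genes, -0.03 and -0.02. The macrophage genes stand at -0.33 and -0.22, the mesenchyme list at -0.31 and -0.22 and the acinar list at 0.28 and 0.22.

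Since other leukocytes share several of the 10 genes, their own markers were read beside them, and their part in the differences was not tested. T cell markers were almost absent, with Cd3d at a mean of 0.0204 FPKM, Cd8a at 0.0103 and Cd8b1 listed at 0 in 9 of 9 libraries, although Cd3e was at 5.68 FPKM. Of the B cell genes, Ebf1, which other cells also express, was highest at 4.56 FPKM, Cd79b was at 1.97 and Vpreb1 at 0.826, and Ms4a1 was lowest at 0.00728. Summed over the lists, the T and NK cell genes ran from 24.4 to 29.4 FPKM in knockouts and 27.9 to 32.8 in wild type, and the B cell genes from 5.67 to 8.14 and 7.81 to 9.58. Of their tested genes 4 of 6 and 2 of 3 were lower in knockouts.

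Other myeloid lists did not share 1 direction. Neutrophil genes, led by S100a8 and S100a9, were higher in knockouts for 6 of 8 tested, with a median of 0.45 and sums of 37.0 to 67.8 FPKM against 15.9 to 53.0 in wild type. Mast cell genes were lower for 5 of 7, with a median of -0.20 and sums of 34.4 to 52.7 against 36.7 to 57.0, led over 9 libraries by Kit at 11.95, Cpa3 at 11.6, Cma1 at 6.997 and Tpsb2 at 4.25 FPKM. Ms4a2, the gene of another Fc receptor chain of mast cells, was at 0.0900 FPKM. Dendritic cell and MHC class II genes were lower for 6 of 6, with a median of -0.36, Cd74 at 31.3 ± 7.82 and 19.8 ± 6.59 FPKM, and Flt3 at 0.243 over 9 libraries. Monocyte genes were lower for 7 of 7, with a median of -0.21, and megakaryocyte genes for 3 of 5, with a median of -0.13. The monocyte list was led over 9 libraries by Fn1 at 20.5 and Vcan at 10.6 FPKM, which other cells express too. Ccr2 was at 2.33 FPKM. Pf4, which megakaryocytes and embryonic macrophages both express and both lists hold, was at 31.7 ± 2.52 and 22.1 ± 5.57 FPKM. Limma called 0 genes in each list.

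Among the other tissues of the organ, the mesenchyme leaned the same way as the macrophage genes, with 15 of 15 tested genes lower in knockouts, a median of -0.31 and sums of 1589 to 2294 FPKM against 1981 to 2709 in wild type. The endothelium had 14 of 15 lower, with a median of -0.18 and sums of 297 to 383 against 368 to 414. Endocrine genes were lower for 11 of 12, with a median of -0.39 and sums of 3039 to 4952 against 4052 to 5674. Acinar genes were higher for 11 of 11, with a median of 0.28. Their summed level, which makes up a large share of all fragments, was 28870 FPKM in the library labelled knockout 1, and 49190 and 38900 in knockouts 2 and 3, against 30980 to 32920 in wild type. Erythroid genes were higher for 5 of 8, with a median of 0.06. FPKM values of a library share 1 total, and the part of the acinar level in the macrophage difference was not tested. With each library scaled to its 75th percentile, 10 of 10 macrophage genes were lower in knockouts than in wild type, with a median of -0.33. Of all tested genes 56.5% were then lower, with a median of -0.02. This scaling evens 1 quantile of each library and does not measure its tissue make-up.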

How the data were processed

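The authors' deposited gene tables, 1 per library, hold FPKM, its 2 confidence bounds and a status per locus, per the file headers, in the layout Cufflinks writes. The authors aligned reads with TopHat 2.0.4 (mismatches up to 4, hits up to 10) on mm9, per the series' design text among the labels. CASAVA 1.8.2, Cufflinks and DESeq are named in the submitters' processing notes. RNA was isolated with RNeasy Mini kits, prepared with TruSeq and read on a HiSeq2000, per the labels. Which gene models were used, and whether strand was, is not given in the sources used here, so sense and antisense reads may be merged.

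Each table listed 23699 loci under 23235 symbols. For 248 symbols at several loci the values were added up, and 4 symbols with a HIDATA status were left out. Depth is not given as such. If the upper bound lies 2 standard errors above an FPKM, the implied totals are 19523066 to 25426555 fragments per library.

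The test was limma 3.58.1 (R 4.3.3) on log2(FPKM + 1) (intensity trend, 9 libraries in 1 fit, genotype only), two-sided, over the 13306 genes at 1 FPKM or more in at least 3 libraries, with Benjamini-Hochberg adjustment and a threshold of 0.05. The script was tested on simulated data. Fold changes on this scale understate low genes. Tables were handled in Python 3.11.15. The 10 genes and the 18 gene lists beside them were chosen with earlier results of these data known. From each list the text names up to 4 genes of highest mean FPKM, the defining receptors and factors, and any that pass; for cell types other than macrophages fewer are named, and a few markers with the lowest levels were chosen after their values were seen. Some genes that this rule covers are not reported here. Genes likest to the 10 are those with the highest Pearson r, over 9 libraries, to the mean of their scaled log2 levels. Spi1 and Pirb were matched by the files' names Sfpi1 and Lilrb3, and Mcpip1, Ly6g and Ahsp were not matched. Gene positions are 1-based on mm9. The 17 alternative settings covered the pseudocount, the low-value filter, the samples in the fit, a replicate block, sex, scaling, the intensity trend and left-out libraries. Same-numbered libraries of 2 groups deviated together little (r from -0.19 to 0.29, against -0.34 to 0.28 for differently numbered ones), so the numbers were not taken as pairs. The highest same-numbered values were 0.29 for heterozygote 1 with knockout 1 and 0.27 for heterozygote 2 with knockout 2.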

Additional observations from a re-analysis of the deposited data

How the results depend on the processing

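Under the 17 alternative settings, 0 of the 10 macrophage genes were called in any comparison. In knockouts against wild type, 10 of 10 were lower under each setting, with medians from -0.44 (without wild type 3) to -0.27 (without knockout 2), and the smallest adjusted p in any setting was 0.096 (Mrc1, without knockout 1). The share of all tested genes that were lower ran from 50.9% (without knockout 2) to 63.1% (without wild type 2). In heterozygotes against wild type 7 or 8 were lower, beside 53% to 61.8% of all tested genes. Tyrobp turned to 0.013 without wild type 1 and 0.108 without heterozygote 2, in a range of -0.218 to 0.108 with a single library left out. In knockouts against heterozygotes 6 to 10 were lower, beside 43.7% to 60.1% of all tested genes. There Cx3cr1 turned to -0.029 with sex as a covariate, -0.159 without heterozygote 2, -0.004 without knockout 1 and -0.003 without knockout 3, in a range of -0.159 to 0.14. Csf1r turned to 0.069 without heterozygote 3 and 0.021 without knockout 2 (range -0.173 to 0.069), Fcer1g to 0.094 without knockout 2 (range -0.272 to 0.094), Ptprc to -0.023 without heterozygote 2 (range -0.023 to 0.227), and Tyrobp to 0.015 without the libraries labelled knockout 1 and heterozygote 1; the cause was not tested.

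Over all genes, the calls in knockouts against wild type numbered 1 with only the compared groups in the fit, 4 without the libraries labelled knockout 1 and heterozygote 1, and 0 to 1 with a single library left out. In heterozygotes against wild type they numbered 6, 5 and 0 to 7 in the same order, and 1 with the replicate block. In knockouts against heterozygotes they numbered 5 without both libraries and 0 to 4 with a single library left out. With the replicate block the macrophage genes lower numbered 10, 8 and 8 in the 3 comparisons, 0 were called, and those at an unadjusted p under 0.05 numbered 4, 0 and 1. Of all tested genes in these limma fits, 58.5%, 57.1% and 55.3% were lower. Those lower at an unadjusted p under 0.05 made up 5.82%, 2.37% and 1.25%. Depth limits Ptprc and Cd68 most, at 75.3 to 197 and 103 to 169 implied fragments per library.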
